A study of Mus musculus with 9 samples.

Results

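The core features of mouse colon content described here are the sequence features counted in every one of 9 samples and never above 10% of a sample. The samples held 676 features, of which 84 were present throughout, and 5 of those exceeded 10% of a sample somewhere, which left 79 core features. Membership was read from the same counts that are described below. Prevalence is therefore no finding, and no test is attached to it.

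DNA came from the colon content of Jupfl/fl and iVilCreERT2Jupfl/fl mice. Both genotypes carried the floxed Jup alleles, and Jup encodes plakoglobin, which anchors cadherins in desmosomes and at adherens junctions. The floxed alleles alone make a mouse WT here. The knockout mice (KO) also carried an inducible Cre recombinase driven by the villin promoter, which is active in the intestinal epithelium, so other tissues keep the gene. How Cre was induced and how old the mice were is not stated in the sources used. Dextran sodium sulfate (DSS), which injures the colonic epithelium, was given at 2.5% for 5 days in the drinking water, and the untreated state is called basal. Each group had 2 samples, except KO with DSS, which had 3. The series describes its DSS experiment with n = 10, and how these samples relate to that number is not stated. The labels do not say whether samples are separate animals. P-values rest only on the spread among the samples, which may in part be technical and was estimated partly across features. The table holds no host gene, so neither genotype nor tissue could be checked.

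The colon houses a dense community of mostly anaerobic bacteria, and members shared by all animals of a colony are often called its core. In acute colitis the loss of the mucus and epithelial barrier, bleeding and oxygen leaking into the lumen are known to reshape that community. Sequencing counts give only relative amounts: a feature's share of all counts falls when another feature expands, even if its own cells do not change in number. Ratios among core features are free of what features outside the core do, but still fall when the rest of the core expands. A feature's log2 ratio here is the log2 of its count minus the mean log2 count of all 79 core features in the same sample, so 0 is the geometric mean of the core and 1 is a doubling over it. No core count is 0, so no pseudocount was needed. The deposited identifiers are not paired with a sequence or an organism. Core features are numbered by mean share over the 9 samples, core feature 1 being the most abundant.

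Total counts ran from 341216 to 451515 per sample. The core held 97812 to 196959 counts in the basal samples and 80230 to 168865 in the DSS samples. Of the 711 values (79 features in 9 samples), 19 were under 10 counts and 153 under 100. Wilson 95% intervals of the shares had half-widths of at most 0.092 percentage points. They cover counting error alone, because PCR copies are not independent molecules. At the low end, core feature 67 had 3 counts in WT DSS 1, a share of 0.000664% with an interval of 0.000226% to 0.00195%. Within the core KO DSS 3 lay closer to basal than to other DSS samples, and KO basal 2 closer to DSS than to other basal samples, with distances given below.

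The core was a smaller part of a sample's features than of its counts in most samples. It made up 21.9% to 32.8% of the features seen in a sample. It took 28.5% and 57.7% of the counts of WT basal, 48.05% and 51.5% of KO basal, 28.1% and 36.5% of WT DSS, and 22.2%, 22.1% and 41.7% of KO DSS samples. The basal samples averaged 46.4% ± 12.6 (SD, n = 4) and the DSS samples 30.1% ± 8.74 (SD, n = 5). Averaged over genotypes, DSS minus basal was -15.97 percentage points, against a pooled SD within groups of 12.0 points. It was -8.66 points without WT basal 2. In WT alone the direction then turned, with a mean of 32.3% in WT DSS against 28.5% in WT basal 1. The sides overlapped: WT basal 1 lay within the DSS range, and WT DSS 2 and KO DSS 3 within the basal range. The 6 features above 10% of a sample held 7.31% to 61.4%, and taking them out of the total left a difference of -7.79 points. KO minus WT was 1.53 points, which is small beside the spread. It averaged opposite directions. At the basal state the mean was 49.8% in KO and 43.1% in WT samples, and with DSS 28.7% in KO and 32.3% in WT samples. The sign of the averaged difference turned without WT basal 1, WT DSS 1 or KO DSS 3.

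**Figure D1:**
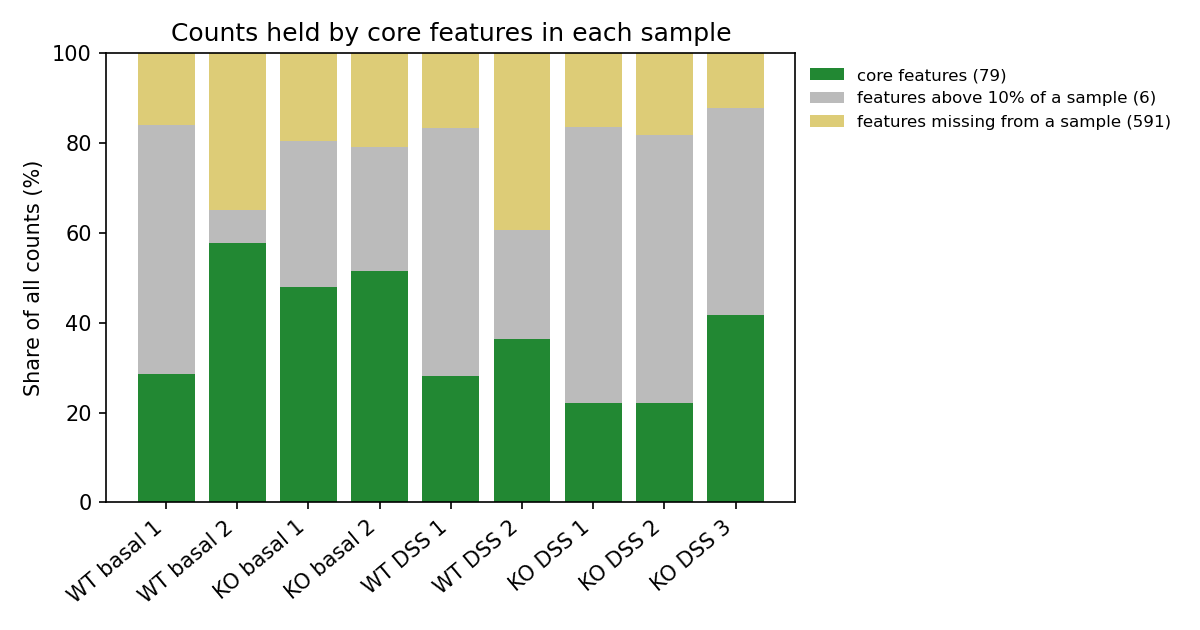
Bars stack, for each of the 9 samples, the percentage of all counts held by the 79 core features, by the 6 features above 10% of any sample, and by the 591 other features, each missing from at least 1 sample. Core features take 22.1% to 57.7% of a sample, highest in WT basal 2 and lowest in KO DSS 2.

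Abundance within the core was uneven, and its leaders changed from sample to sample. Averaged over the 9 samples, 13 core features had a share of 1% or more and 22 had less than 0.1%. The 10 most abundant core features of a sample held 58.5% to 75.8% of its core counts. Core feature 1 led in replicate 1 of all 4 groups, core feature 2 in WT basal 2 and KO basal 2, core feature 4 in WT DSS 2, core feature 8 in KO DSS 2 and core feature 3 in KO DSS 3.

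Core feature 1 held 5.51% and 0.308% of WT basal, 7.89% and 3.93% of KO basal, 5.06% and 0.199% of WT DSS, and 1.89%, 0.0356% and 6.53% of KO DSS samples. It was thus low in 1 sample of each genotype and treatment except KO basal, and basal and DSS samples overlapped. Core feature 2 held 3.72% and 8.09% of WT basal, 0.914% and 7.18% of KO basal, 4.40% and 0.0367% of WT DSS, and 1.10%, 0.299% and 2.36% of KO DSS samples. Core feature 3 held 4.12% and 2.23% of WT basal, 3.53% and 1.79% of KO basal, 0.456% and 1.54% of WT DSS, and 0.165%, 0.0221% and 9.26% of KO DSS samples. The DSS samples of this feature include both its lowest values and, in KO DSS 3, its highest. Core feature 5 ranged from 0.0236% to 7.32%, core feature 6 from 0.148% to 5.06%, core feature 7 from 0.0163% to 3.90%, core feature 8 from 0.0193% to 2.78%, core feature 9 from 0.0297% to 2.31% and core feature 10 from 0.147% to 1.98%, each with overlap of basal and DSS samples. In edgeR's quasi-likelihood test none of core features 1 to 10 passed for treatment or genotype, and the smallest adjusted p among them was 0.895.

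**Figure D2:**
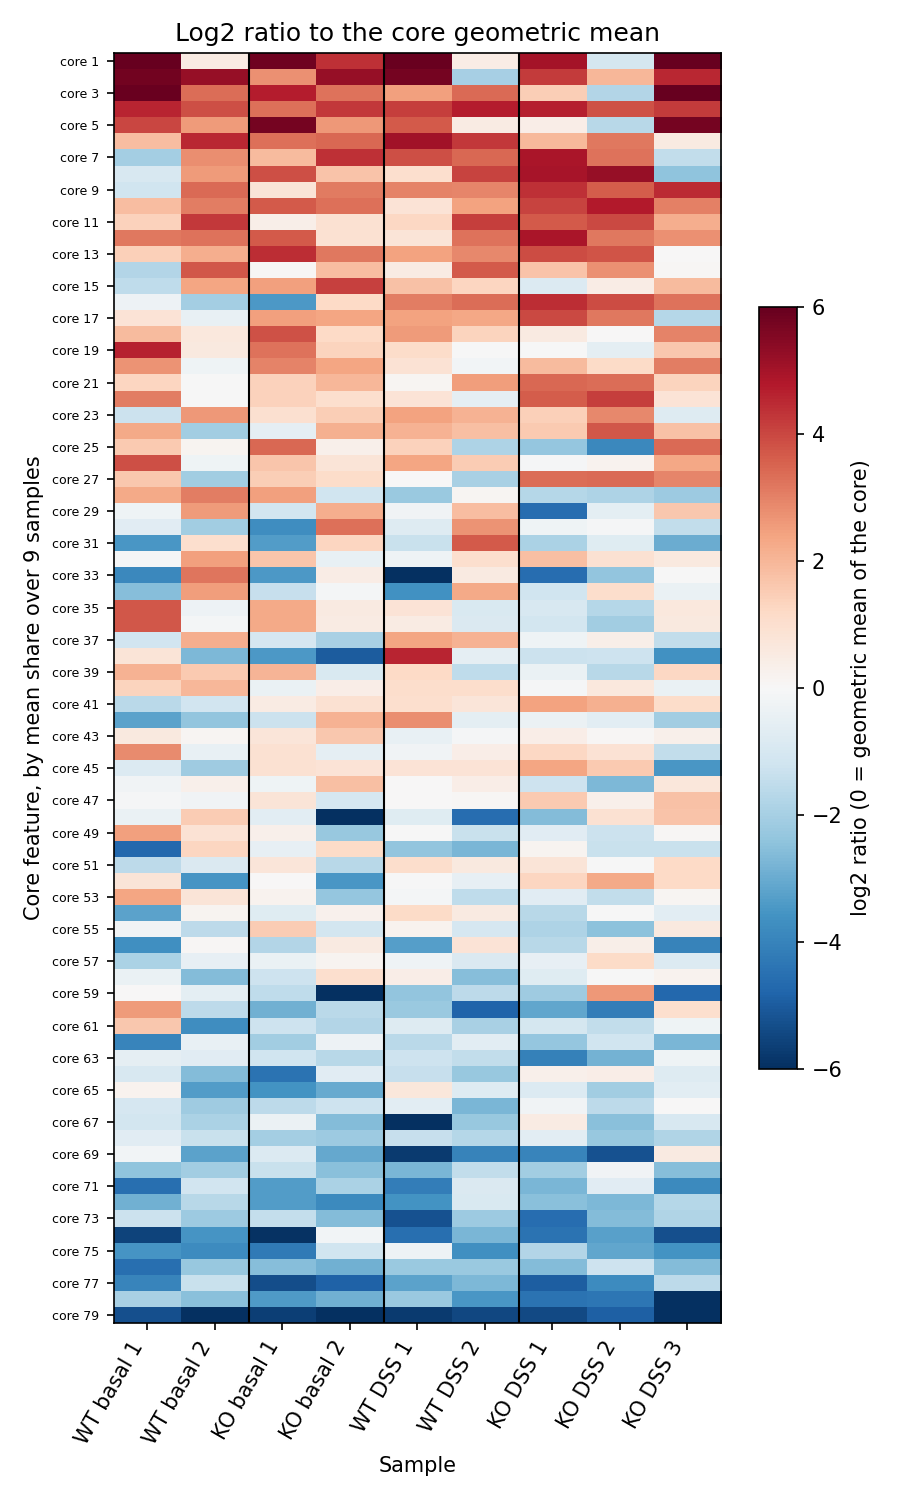
Each row is a core feature, ordered by mean share, and each column a sample, with black lines between the 4 groups. Colour gives the log2 ratio to the geometric mean of the core, from blue (below) to red (above). Colours stop at 6 on either side, which 9 values exceed. Rows such as core feature 4 keep 1 colour, while core features 1, 16 and 33 change sharply between samples.

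Being present everywhere did not mean being steady. The ratio of a core feature's highest to its lowest share over the 9 samples had a median of 32.3. It exceeded 100 in 23 core features and was under 10 in 9 of them. The SD of the log2 ratio over samples had a median of 1.52 (quartiles 1.27 and 2.08) and was under 1 in 11 and over 2 in 22 core features. The median SD was 1.74 in core features 1 to 40 and 1.37 in core features 41 to 79. Selection shapes this comparison, because a rare feature that varies widely is easily missing from a sample and then is no member. Numbering by mean share also moves features with a high peak in few samples upward. Whether abundance goes with steadiness therefore cannot be read from these medians. The 5 features that were found in all 9 samples but exceeded 10% had SDs of 2.21 to 4.41 on the same scale, although the rule that set them apart used their highest share.

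Core feature 4 was the steadiest. It held 1.59% and 3.16% of WT basal, 1.33% and 3.64% of KO basal, 1.47% and 3.89% of WT DSS, and 1.52%, 1.05% and 1.88% of KO DSS samples. Its log2 ratio stayed between 3.28 and 4.73 (SD 0.46), and its highest share was 3.69 times its lowest. Basal samples averaged 2.43% ± 1.14 (SD, n = 4) and DSS samples 1.96% ± 1.12 (SD, n = 5), with full overlap. Core feature 68 was the next in steadiness (SD 0.59) at a far lower level. It held 0.0419% and 0.0850% of WT basal, 0.0333% and 0.0424% of KO basal, 0.0319% and 0.0442% of WT DSS, and 0.0379%, 0.0155% and 0.0294% of KO DSS samples. Core features 43 and 70 followed, with SDs of 0.59 and 0.81.

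At the other end stood core features 33, 1, 38 and 16, with SDs of 3.03, 2.90, 2.85 and 2.83. Core feature 33 had 6883 counts in WT basal 2 and 5 in WT DSS 1. It had 16 counts in WT basal 1, 50 and 944 in KO basal, 776 in WT DSS 2, and 9, 58 and 418 in the KO DSS samples. Its share thus varied 1822-fold among samples that each contained it, and within every group by over 10-fold by these counts.

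Some core features moved in lockstep. Among the 3081 pairs of core features, the SD of the log2 ratio between the members of a pair had a median of 2.32. In 7 pairs it was under 0.3, a limit set after the values were seen, and the next pair stood at 0.50. These 7 pairs join 11 core features into 5 sets: core features 5 and 25, 17 and 45, 18 and 55, 49 and 53, and the trio 19, 35 and 36. The count was 7 in each run that left out 1 sample.

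Core feature 49 was 0.969 to 1.13 times as abundant as core feature 53 in the 9 samples, with a median of 1.08. Core feature 17 was 2.86 to 3.43 times as abundant as core feature 45, with a median of 3.06. For core features 18 and 55 the ratio lay between 4.31 and 5.55 (median 5.07), and for core features 5 and 25 between 4.57 and 6.53 (median 5.02). In these 4 pairs the SD of the log2 ratio was 0.08, 0.08, 0.11 and 0.15, while counting error alone gives 0.13, 0.12, 0.12 and 0.15. The ratios thus varied no more than counting error allows, though these 4 pairs were picked as the steadiest of 3081. Samples with few counts weigh most in that error, such as KO DSS 2 with 21 counts of core feature 25. The shares themselves varied widely: core features 5 and 25 together took 8.79% of KO basal 1 and 0.0287% of KO DSS 2.

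The trio was looser, and its ratios varied more than counting error alone. Core features 35 and 36 were nearly equal, with a median ratio of 1.01 (0.871 to 1.28) and an SD of 0.17 against 0.12 from counting error. Core feature 19 was 1.91 times as abundant as core feature 35 by the median, but only 1.21 times in WT DSS 1, with an SD of 0.24 against 0.10 from counting error. Core feature 19 was 1.48 to 2.75 times as abundant as core feature 36, with an SD of 0.25 against 0.11. As a measure of how far other abundant pairs drift, the ratio of core feature 3 to core feature 5 ran from 0.437 in WT DSS 1 to 7.48 in WT DSS 2. No core feature kept such a ratio to any of the 5 features above 10% that were found in every sample: the steadiest of these 395 pairs had an SD of 1.37. Members of a set are not independent evidence of a difference, since each repeats the other's course.

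**Figure D3:**
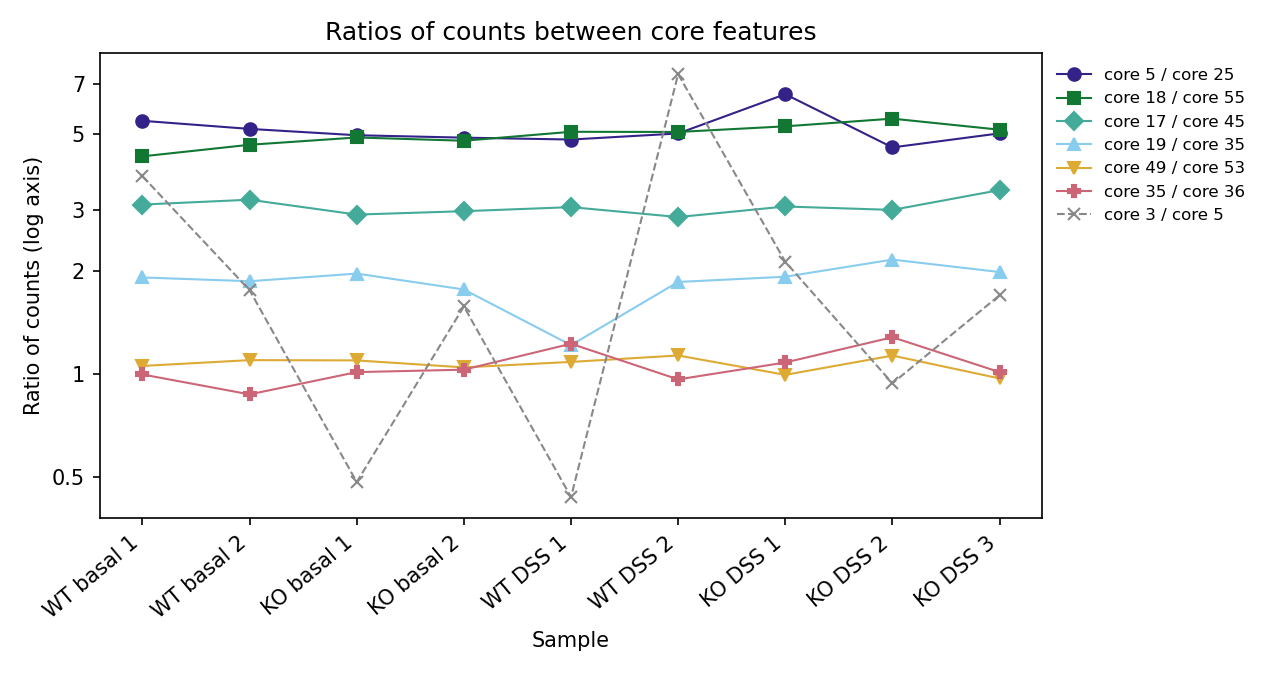
The y axis gives, on a log scale, the ratio of counts between 2 core features in each of the 9 samples on the x axis; lines only join the points of a pair. The 6 solid lines are pairs with a near-constant ratio and vary less than the dashed one; core feature 19 over core feature 35 dips to 1.21 in WT DSS 1, and core feature 5 over core feature 25 reaches 6.53 in KO DSS 1. The dashed line, core feature 3 over core feature 5, swings between 0.437 and 7.48.

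The comparison of DSS with basal samples asked which core features change in acute colitis, averaged over genotypes. By value, core feature 16 was higher with DSS, and core feature 28 and the trio of core features 19, 35 and 36 were lower. None of the 79 passed the test. In edgeR's quasi-likelihood test over 491 features, 0 core features had a Benjamini-Hochberg adjusted p under 0.05, where 9 of all features (1.83%) did. At an unadjusted p under 0.05 there were 2 core features, 2.53% of them, against 17.1% of all features tested. DESeq2 also called 0, with 6 core features given no adjusted p, and limma 0, with 2 and 1 core features at an unadjusted p under 0.05. Of all 491 features DESeq2 called 41 and limma 0. The member rule leaves out every feature with a count of 0, so smaller differences are built into it. The median size of the log2 difference was 0.70 in core features and 2.59 in the other 412 features tested. By direction, 30 core features were higher and 49 lower with DSS, with a median log2 difference of -0.35 beside 0.22 for all features tested. Both the split and the core median depend on scaling. By mean log2 ratio within the core, 41 core features were higher and 38 lower, with a median difference of 0.06. The edgeR median was 0.09 with counts scaled to the core and -0.61 with library totals. It was 0.05 without KO basal 1.

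Core feature 16 (identifier 40394bfe4a2f991e0651e5a311f3ee24) held 0.0542% and 0.0528% of WT basal, 0.0123% and 0.433% of KO basal, 0.695% and 1.51% of WT DSS, and 1.29%, 1.11% and 1.00% of KO DSS samples. Each of the 5 DSS samples lay above each of the 4 basal samples, both by share and by log2 ratio, and KO DSS 3 was among them. The basal mean was 0.138% ± 0.198 (SD, n = 4) and the DSS mean 1.12% ± 0.306 (SD, n = 5). The edgeR log2 difference was 3.64 ± 1.83 (SE), with an adjusted p of 0.288 in the quasi-likelihood test. Over the alternatives the adjusted p ran from 0.0632 with DESeq2 to 0.584, and the difference grew to 5.55 without KO basal 2, the highest basal sample. Core feature 16 was the only core feature whose log2 ratios did not overlap between DSS and basal samples. Of all features tested, 0.611% were wholly higher with DSS on that scale and 0.611% wholly lower, beside 1 and 0 of the 79 core features.

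Core feature 28 (identifier 49fa302e5104195f2542e814166d369d) held 0.325% and 1.84% of WT basal, 0.760% and 0.0829% of KO basal, 0.0175% and 0.160% of WT DSS, and 0.0183%, 0.0209% and 0.0232% of KO DSS samples. It was lower in both DSS samples than in both basal samples of WT mice, and lower in each KO DSS than in each KO basal sample. The pooled sides still overlapped, through KO basal 2 and WT DSS 2. Its edgeR log2 difference was -3.90 ± 1.88 (SE; quasi-likelihood adjusted p = 0.288, range over alternatives 0.121 to 0.764), or -2.15 without KO basal 1.

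The trio of core features 19, 35 and 36 together held 3.46% and 0.711% of WT basal, 2.60% and 1.02% of KO basal, 0.434% and 0.305% of WT DSS, and 0.117%, 0.0889% and 0.628% of KO DSS samples. All DSS samples lay below all basal samples by share, also for each of the 3 features. They were the only core features of which this held, 3.8% of the core. Of all features tested 0.611% did the same, and these were the same 3 features. As a set they repeat each other's course. Their sum averaged 1.95% ± 1.31 (SD, n = 4) over basal samples and 0.315% ± 0.225 (SD, n = 5) with DSS. By log2 ratio within the core the sides overlapped: core feature 36 (identifier 991ef268d4516d2caa7951239f072065) lay at -0.10 in WT basal 2 and at 0.60 in KO DSS 3. The edgeR log2 differences were -2.76 ± 1.69, -2.52 ± 1.73 and -2.65 ± 1.74 (SE), with quasi-likelihood adjusted p-values of 0.462, 0.560 and 0.518. For core feature 36 the difference was -1.17 without WT basal 1.

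**Figure D4:**
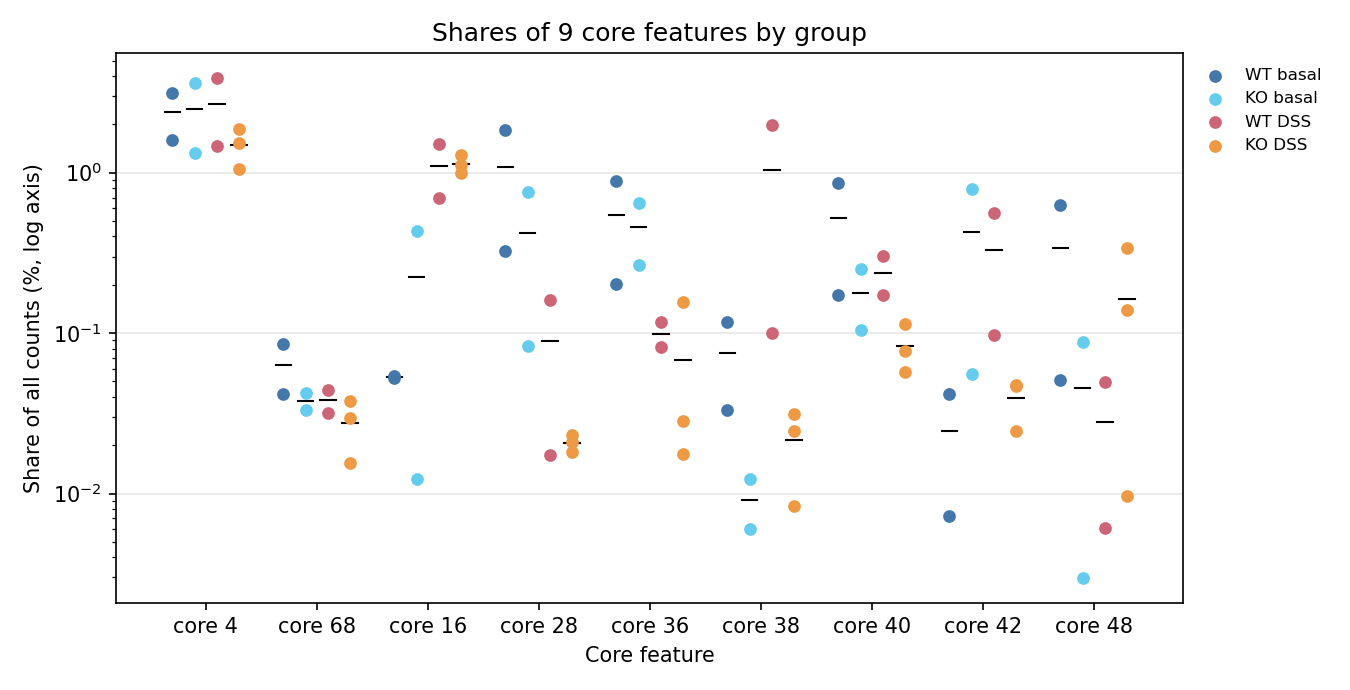
Points show the share of all counts, on a log axis, of 9 core features in each sample, coloured by group, with a black bar at the group mean. Core feature 4 stays between 1.05% and 3.89%, core feature 16 lies higher in all 5 DSS samples, and core feature 36 lower in them.

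Of the other core features with large differences within the core, core feature 38 (identifier ee14a1fd608ba5156b7b14bec81432cb) was carried by WT DSS 1. It held 1.97% there and at most 0.117% elsewhere. Its edgeR log2 difference of 2.57 ± 1.80 (SE) between DSS and basal (quasi-likelihood adjusted p = 0.564) was 0.28 without that sample and 3.98 without WT basal 1. Core feature 52 differed by 0.74 and core feature 69 by -1.75 on the log2 scale (edgeR quasi-likelihood adjusted p = 1.00 and 0.907). The first ranged from 0.30 without WT basal 2 to 2.58 without WT basal 1, with 2.42 without KO basal 1. The second was -0.67 without KO basal 1, -0.54 without WT basal 1. Leaving out KO DSS 3 gave -3.57, and that sample held 0.150% of it while the other DSS samples held at most 0.00911%.

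Within each genotype, the DSS samples of 11 core features lay wholly above and of 13 wholly below the basal samples in WT mice, by log2 ratio. These were 13.9% and 16.5% of the core, where 18.3% and 9.16% of all features tested did so. In KO mice the counts were 8 and 5, or 10.1% and 6.33% of the core, against 9.78% and 5.91% of all features. With so few samples on a side, features often separate by chance. Features with a count of 0 on both sides cannot separate, so core and all features are not alike in this. Both genotypes shared the direction in 4 core features. Core features 16 and 41 were higher and core features 28 and 43 lower with DSS in both, 2.53% of the core each way. Of all features tested, 1.63% and 1.22% did the same. The genotypes were opposed in 0 core features, beside 0.815% of all features that were higher in WT and lower in KO mice and 0.407% the other way. Core feature 41 held 0.0224% and 0.0973% of WT basal, 0.193% and 0.359% of KO basal, 0.167% and 0.244% of WT DSS, and 0.320%, 0.330% and 0.221% of KO DSS samples. Core feature 43 held 0.103% and 0.233% of WT basal, 0.227% and 0.587% of KO basal, 0.0600% and 0.138% of WT DSS, and 0.0791%, 0.0776% and 0.128% of KO DSS samples. Neither passed the edgeR test between DSS and basal (quasi-likelihood adjusted p = 0.907 and 1.00). With genotypes taken singly, edgeR passed 0 core features in WT and 0 in KO mice. An unadjusted p under 0.05 was reached by 0 in each, against 7.13% and 6.31% of all features. DESeq2 and limma called 0 core features in both, where DESeq2 called 14 and 26 of all 491 features and limma 0.

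The comparison of KO with WT samples asked whether loss of Jup from the epithelium goes with a different balance within the core. By value, core features 38 and 40 were lower in KO samples and core feature 27 higher, and none passed. In edgeR's quasi-likelihood test 0 core features had an adjusted p under 0.05, as had 0% of all features. Core feature 38 alone, 1.27% of the core, had an unadjusted p under 0.05, against 10.2% of all features. DESeq2 and limma called 0 core features, where DESeq2 called 24 of all 491 features and limma 0. The median log2 difference was 0.35 in core features and -0.15 in all features tested, with 45 core features higher and 34 lower in KO samples. The core median was 0.06 with library totals and 0.09 with scaling to the core. It turned to -0.23 without KO basal 1, -0.25 without KO basal 2 and -0.23 without KO DSS 3.

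Core feature 38 held 0.117% and 0.0331% of WT basal, 1.97% and 0.0994% of the WT DSS samples, 0.0123% and 0.00598% of KO basal, and 0.0246%, 0.0314% and 0.00840% of KO DSS samples. Each WT sample lay above each KO sample by share, though by a narrow margin between WT basal 2 and KO DSS 2. Of all features tested, 0.815% lay wholly lower in KO samples by share, and core feature 38 was the only core feature to do so. Its edgeR log2 difference was -4.70 ± 1.93 (SE; quasi-likelihood adjusted p = 0.332, range over alternatives 0.0693 to 1.00), or -2.36 without WT DSS 1.

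Core feature 40 held 0.172% and 0.867% of WT basal, 0.172% and 0.301% of the WT DSS samples, 0.105% and 0.250% of KO basal, and 0.0575%, 0.113% and 0.0778% of KO DSS samples. These shares overlapped between genotypes. Its log2 ratios did not: they lay between 1.04 and 1.99 in WT and between -0.41 and 0.61 in KO samples. It was the only core feature to separate on that scale, beside 0.407% of all features lower and 0% higher. The edgeR log2 difference was -1.19 ± 1.76 (SE; quasi-likelihood adjusted p = 1.00).

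Core feature 27 separated by share in the opposite direction, with 0.0384% to 0.211% in WT and 0.384% to 0.793% in KO samples, beside 0.407% of all features. Its edgeR log2 difference of 2.27 ± 1.75 (SE) had a quasi-likelihood adjusted p of 0.789 and grew to 3.61 without WT basal 1. Differences by value that rested on few samples were seen in core features 50 and 67, higher in KO, and 37, lower in KO. Their edgeR log2 differences were 1.15, 1.83 and -2.47, with quasi-likelihood adjusted p-values of 1.00, 1.00 and 0.777. For core feature 50 the difference was 0.46 without WT basal 1, 0.49 without KO basal 2, 0.67 without KO DSS 1 and 3.56 without WT basal 2. For core feature 67 it was 0.68 without KO basal 1, 1.20 without KO DSS 1 and 3.50 without WT DSS 2, and for core feature 37 -1.33 without WT basal 2.

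With treatments taken singly, edgeR passed 0 core features between genotypes in basal and 0 in DSS samples. An unadjusted p under 0.05 was reached by 0 and 1 of them, against 3.05% and 7.94% of all features. DESeq2 and limma called 0 core features in either, where DESeq2 called 8 and 9 of all 491 features and limma 0. By log2 ratio, 10 core features lay wholly higher and 13 wholly lower in KO samples at the basal state. These were 12.7% and 16.5% of the core, where 7.54% and 8.96% of all features did so. With DSS the counts were 11 and 6, or 13.9% and 7.59% of the core, where 4.68% and 11% of all features did. Core features 10, 41 and 43 were wholly higher, and 38, 40 and 78 wholly lower, in KO samples by log2 ratio within basal and again within DSS samples. These were 3.8% of the core each way, where 0.815% and 1.63% of all features tested, core features included, did so. A feature with a count of 0 on both sides cannot separate, and core features have none, so these shares are not alike. With so few samples on a side, features also separate often by chance. No excess of the core over all features can therefore be read from these shares. Core feature 10, for example, had log2 ratios of 1.85 and 3.06 in WT basal against 3.70 and 3.30 in KO basal samples. With DSS they were 0.84 and 2.41 in WT against 4.06, 4.74 and 3.01 in KO samples. Its shares overlapped at the basal state, with 1.81% in WT basal 2 and 1.78% in KO basal 1.

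Whether the genotypes respond differently to DSS was asked with the interaction term. In edgeR's quasi-likelihood test 0 core features passed, with 0 at an unadjusted p under 0.05 against 8.96% of all features. DESeq2 and limma called 0 core features, where DESeq2 called 9 of all 491 features and limma 0. The largest gaps within the core were those of core features 48, 42 and 59. Core feature 48 held 0.0510% and 0.631% of WT basal, 0.0879% and 0.00299% of KO basal, 0.0498% and 0.00608% of WT DSS, and 0.00968%, 0.139% and 0.338% of KO DSS samples. On the log2 ratio scale it was lower with DSS by value in WT (-3.22) and higher in KO mice (3.31), while the samples within KO basal and within WT basal already differed by more than 10-fold in share. Core feature 42 went the other way, with differences of 3.89 in WT and -1.41 in KO mice, the latter resting on 0.792% in KO basal 2. Core feature 59 differed by -1.71 in WT and 2.90 in KO mice. In KO basal 2 it had 5 counts and a log2 ratio of -7.12, against -1.52 in KO basal 1. KO DSS 2 held 0.446% of it and the other KO DSS samples at most 0.0135%. For core features 48, 42 and 59 the edgeR quasi-likelihood adjusted p-values for the interaction were 0.897, 0.579 and 0.951.

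By median distance over the whole core, samples of the same group were no closer to each other than samples of different groups. Distance was measured as the root mean square log2 difference per core feature, so 1 means that features differ by about a doubling. Its median was 2.55 over 6 pairs of the same group, 2.49 over 10 pairs differing in treatment alone, 2.30 over 10 differing in genotype alone and 2.54 over 10 differing in both. These are descriptions, without a test, because the members were chosen on the same counts. Pairs of the same group always differ in replicate number, while each other class includes same-numbered pairs. Same-numbered samples were often nearest to each other, as given below. The medians therefore do not compare treatment or genotype alone. KO DSS 1 and KO DSS 2 were closest at 1.61, followed by WT DSS 2 and KO DSS 2 at 1.90. KO DSS 3 lay nearest to WT basal 1 at 2.07, on average at 2.32 from the basal samples and at 2.76 from the other DSS samples. KO basal 2 lay on average at 2.35 from the DSS samples and at 2.57 from the other basal samples, and it and WT basal 2 were both nearest to WT DSS 2, at 2.07 and 2.01. KO DSS 3 was 3.04 from KO DSS 2, the widest distance within a group. As a check for a library deposited a second time, core counts were compared between samples of a group, and no pair agreed within counting noise.

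**Figure D5:**
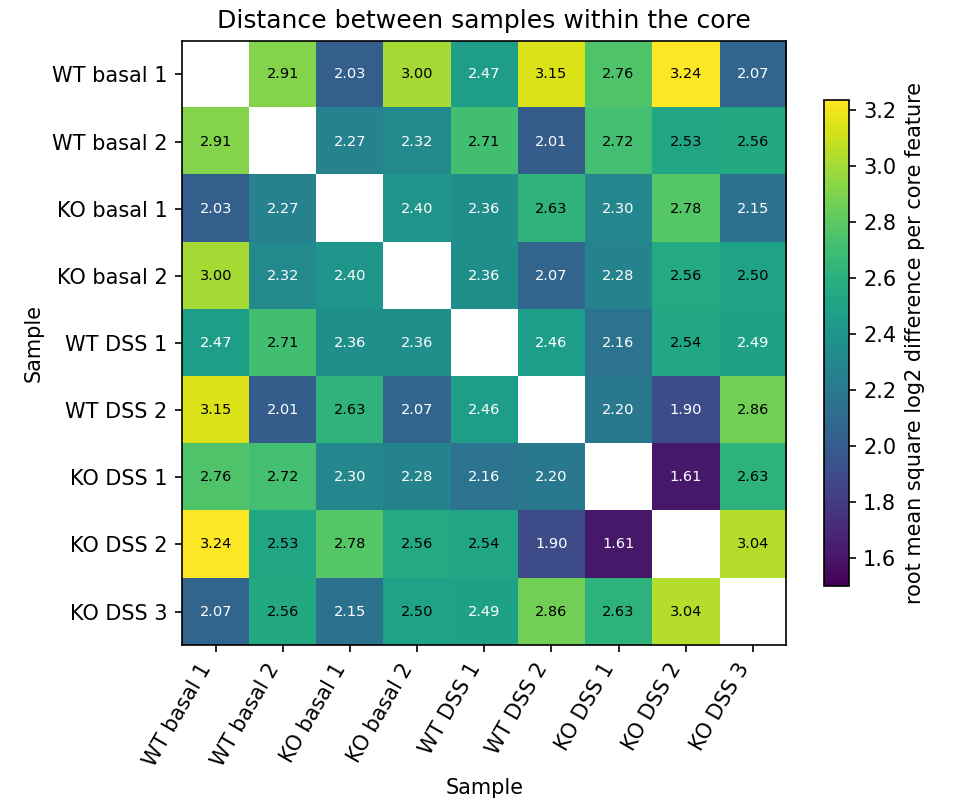
Each cell gives the root mean square log2 difference per core feature between the samples of its row and column, from dark (close) to bright (far). KO DSS 1 and KO DSS 2 are closest at 1.61, and WT basal 1 and KO DSS 2 are farthest apart at 3.24.

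Features on either side of the limits of the member rule were as follows. Just inside the 10% limit were core features 3, 2 and 1, with highest shares of 9.26%, 8.09% and 7.89%, and just outside were features reaching 11.6%, 15.4% and 16.8%. Just inside the presence limit were core features 67, 79 and 33, with lowest counts of 3, 4 and 5. Core feature 79 never exceeded 12 counts. Just outside, 52 features were found in 8 of 9 samples, of which 13 were missing from WT basal 1. The most abundant of them reached 32.8% of KO DSS 2 and had no count in KO basal 2. The next reached 3.50% of KO DSS 1 with no count in KO basal 2, and the one after that 4.28% of WT DSS 2 with no count in KO basal 1.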

How the data were processed

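Colon content DNA was sequenced as paired-end libraries, per the labels' protocols. The deposited counts are whole numbers for 782 features in 16 columns, not normalized. Of these, 9 columns bear the name in a sample's description and were used, and 7 were not. The sources used here do not give the amplified region, denoising, filters or taxonomy. Titles gave each sample's group and replicate number.

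Core features, their numbering, lists and the limit on near-constant ratios were chosen with earlier results of these data known. Tests ran on all 491 features that reached 10 counts in 2 or more samples, every core feature among them. edgeR 4.0.16 (R 4.3.3) was used with TMM factors, the quasi-likelihood F-test and 1 mean for each of 4 groups, and 7 contrasts were taken, pooled ones averaging strata equally. P-values were adjusted by Benjamini-Hochberg over all features tested, with a threshold of 0.05. Each SE is the size of the log2 difference divided by the root of its F. It rests on a spread that edgeR estimates partly across features. Between DSS and basal the SE was 1.58 for core feature 4 and 1.59 for core feature 1. Their log2 ratios had SDs of 0.46 and 2.90 over the 9 samples. A high p-value therefore does not show that a feature varied widely among its samples. Alternatives were DESeq2 1.42.0, limma 3.58.1 on log2 ratios to the core with a pseudocount of 0.5, library totals, scaling to the core, other filters, the replicate number as a block, other member rules and each sample left out. Simple summaries used Python 3.11.15. The fits were also run on simulated counts, with the outcome not given here. The median SE of core features was 1.79 log2 units between DSS and basal and 3.56 for the interaction. A count of 0 core features passing therefore does not mean that none changed.

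Named were the 10 most abundant core features, any past the threshold (0), those not overlapping or differing most between DSS and basal and between KO and WT samples, the 4 least and 4 most variable, the 4 steadiest pairs, those beside each limit of the rule, and the 3 of largest difference between genotypes in response. Core features 19, 35, 41 and 78 were added after their values were seen.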

Additional observations from a re-analysis of the deposited data

Results flagged for a closer look

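The search covered 72 sets of 4 basal or 5 DSS values, from the 35 named core features and the summed core share. In 6 of them a sample lay far from the others of its side. The rule would flag about 1 in 20 independent sets by chance. Most named features were chosen from these same values and some repeat each other, so the 6 cannot be compared with that rate. Values are log2 ratios to the core. In KO DSS 3, core feature 7 lay at -1.49 against 3.26 to 4.92 in the other DSS samples. Core features 17 and 45, a pair with a near-constant ratio, lay there at -1.72 and -3.50, against 2.34 to 3.98 and 0.82 to 2.36. Core feature 69 lay there at 0.53, against -5.73 to -3.95. In WT DSS 2, core feature 28 lay at 0.13, against -2.23 to -1.71 in the other DSS samples. In WT basal 2, core feature 27 lay at -2.10, against 1.08 to 1.64 in the other basal samples. No named core feature had all samples of both genotypes moving in opposite directions with DSS.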

How the results depend on the processing

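The count of core features called was 0 in all 7 contrasts, and stayed 0 under each of the 18 alternatives, left-out samples included. Other member rules only recounted the calls of the main fit. Keeping only core features with 10 or more counts in every sample could give nothing but 0. Adding features above 10% could give more only where the main fit called any feature, between DSS and basal. With the replicate block 0 core features passed in any contrast, 8 had an unadjusted p under 0.05 between DSS and basal, and all features called there went from 9 to 21. Same-numbered samples deviated together in part (correlations of -0.05 to 0.50 across core features, some repeating others because groups had 2 samples). By distance within the core, WT basal 1, KO basal 1 and WT DSS 1 each lay nearest to a replicate 1 of another group. WT basal 2, KO basal 2 and WT DSS 2 each lay nearest to a replicate 2 of another group. KO DSS 1 and KO DSS 2 lay nearest to each other. What the numbers stand for is not stated and was not tested, and the main fit does not pair samples by them. Core features not overlapping between DSS and basal numbered 2 with the median of the core as reference, 4 by share of all counts, and 1 to 6 without each sample (6 without KO basal 2). Between KO and WT they numbered 2 by share and 1 to 6 without each sample (6 without WT basal 1). These counts rise partly because fewer samples must separate. The median SD over samples was 1.74 by share of all counts. The summed share of KO minus WT turned to -0.89 points with features above 10% included and ran from -5.78 to 8.83 points without each sample, turning negative without WT basal 1 (-5.78), WT DSS 1 (-0.57) and KO DSS 3 (-1.73). All 12 differences of named core features, picked from these same counts for their size or separation, kept their sign in 16 alternatives each. Kept signs are therefore partly fixed by that choice. The cause was not tested. Depth limits the 11 core features with under 10 counts in a sample. Alternatives on pairs were chosen after seeing the data: 5 pairs were under an SD of 0.2 and 8 under 0.5.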
